A study of Vitis vinifera with 36 samples.

Results

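The glutathione S-transferases (GSTs) of the grape berry were taken as the genes of the deposited expression table whose Pfam annotation contained a GST_N or a GST_C domain, the N- and C-terminal domains of these enzymes. The table held 88 such genes among 25280, and 87 of them are described here, since VIT_204s0079g00690 was left out by the rule. Of the 87 genes, 58 reached at least 1 FPKM (mapped fragments scaled by transcript length and by the size of the library) in at least 3 libraries and were tested, out of 17598 tested genes of the whole table. The other 29 were too low to be tested, so that the counts below refer to the 58 tested genes and not to the whole family.

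Berries of field-grown Vitis vinifera cv. Cabernet Sauvignon were sprayed at E-L 33 of the modified Eichhorn-Lorenz scale, while still green and hard. Control clusters received 0.05% Tween alone, ABA1000 clusters 1000 mg/L abscisic acid and NAA100 clusters 100 mg/L of the synthetic auxin 1-naphthaleneacetic acid, both in the same Tween solution. Whole pericarp of deseeded berries was sampled in 2015 at the stages E-L 34, 35, 36 and 38 (from green berries through the onset of ripening to harvest ripeness), which gave 12 groups of 3 replicates and 36 libraries. Each treatment had 3 plots of 50 vines, and a replicate stood for 500 berries, of which 50 were used for RNA. Libraries were matched by stage and not by date. The paper reports that berries began to ripen and matured earlier than the control after ABA, and later after NAA. The treatment and the day of sampling therefore cannot be told apart where sprayed and control berries reached a stage on different days.

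GSTs join the tripeptide glutathione to reactive or poorly soluble molecules, which marks these for transport into the vacuole, and some of them bind flavonoids without changing them. The tau and phi classes are the large plant classes, known from the detoxification of herbicides and from responses to stress, and several tau genes were first found as genes induced by auxin. The lambda and dehydroascorbate reductase (DHAR) classes work as thiol-dependent reductases, DHAR returning oxidised ascorbate to its reduced form, and the zeta class takes part in tyrosine breakdown. The remaining types in the list are the tetrachlorohydroquinone dehalogenase-like (TCHQD) class, the glutathionyl-hydroquinone reductases (GHR) and proteins similar to animal prostaglandin E synthase 2 (PGES2), whose role in grape is not known.

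The column totals of the 36 libraries ranged from 489454 to 596970 FPKM, and the GSTs together took between 0.204% and 0.523% of a library (median 0.303%). The pericarp was labelled as deseeded, yet the summed seed storage protein genes reached 307 to 1609 FPKM in 6 libraries (ABA1000 E-L 34 replicate 3, ABA1000 E-L 35 replicate 2, Control E-L 35 replicate 3, Control E-L 36 replicate 2 and NAA100 E-L 35 replicates 2 and 3), against 75.4 to 281 FPKM in the other 30. The summed oleosin genes, a second seed marker, ranged from 7.42 to 301 FPKM and followed this split only in part. They were highest in a library of ABA1000 E-L 35 and reached at most 74.4 FPKM in Control E-L 35. In ABA1000 E-L 36, with no library among the 6, they held 109 to 112 FPKM. The skin colour regulators VviMYBA1, VviMYBA2 and VviMYBA3, summed, ranged from 0.166 to 112 FPKM over the libraries. Replicate 3 of NAA100 at E-L 35 held 45.4 FPKM of these regulators against 5.55 and 5.74 FPKM in the other replicates of that group, and its profile over all genes was closest to that of ABA1000 E-L 35 replicate 2. Results that rest on this library are given with and without it below. In pericarp, fewer cells of one type and less RNA per cell cannot be told apart.

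By the description of their closest annotated protein, 60 of the 87 genes were of the tau class and 9 of the phi class, and the others were 4 lambda, 3 zeta, 3 GHR, 2 DHAR, 2 PGES2-like and 1 TCHQD gene together with 3 whose class was unclear. The tau genes held 68.3% of the summed GST FPKM, the phi genes 12.03% and the lambda genes 8.41%, while each of the other classes held 2.60% or less. Expression was uneven, with 36 genes below 1 FPKM on average over the 36 libraries, 22 between 1 and 10 FPKM, 24 between 10 and 100 FPKM and 5 above. The 3 most abundant genes took 36.0% of the summed FPKM and the first 10 took 66.8%.

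These 3 genes were tau genes on chromosome 19. VIT_219s0015g02880 (chromosome 19, 13399063 to 13400647, minus strand), described as similar to parC, a tobacco gene known for its induction by auxin, averaged 240.0 FPKM and ranged from 107 to 476 FPKM. VIT_219s0015g02590 (12760348 to 12761816, minus strand), also parC-like, averaged 194 FPKM, and VIT_219s0015g02680 (12999421 to 13001041, minus strand) averaged 173.5 FPKM. The phi gene VIT_212s0028g00930 (chromosome 12, 1438591 to 1439943, minus strand), named after Arabidopsis GSTF9, was the fifth in abundance with 100.7 FPKM. Coordinates are those of the deposited table, and its genome build is not given in the sources used here. The most abundant gene, VIT_219s0015g02880, passed the threshold in none of the 8 comparisons with the control, its log2 fold changes lying between −0.19 and 0.25 with an SE of 0.31.

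**Figure D1:**
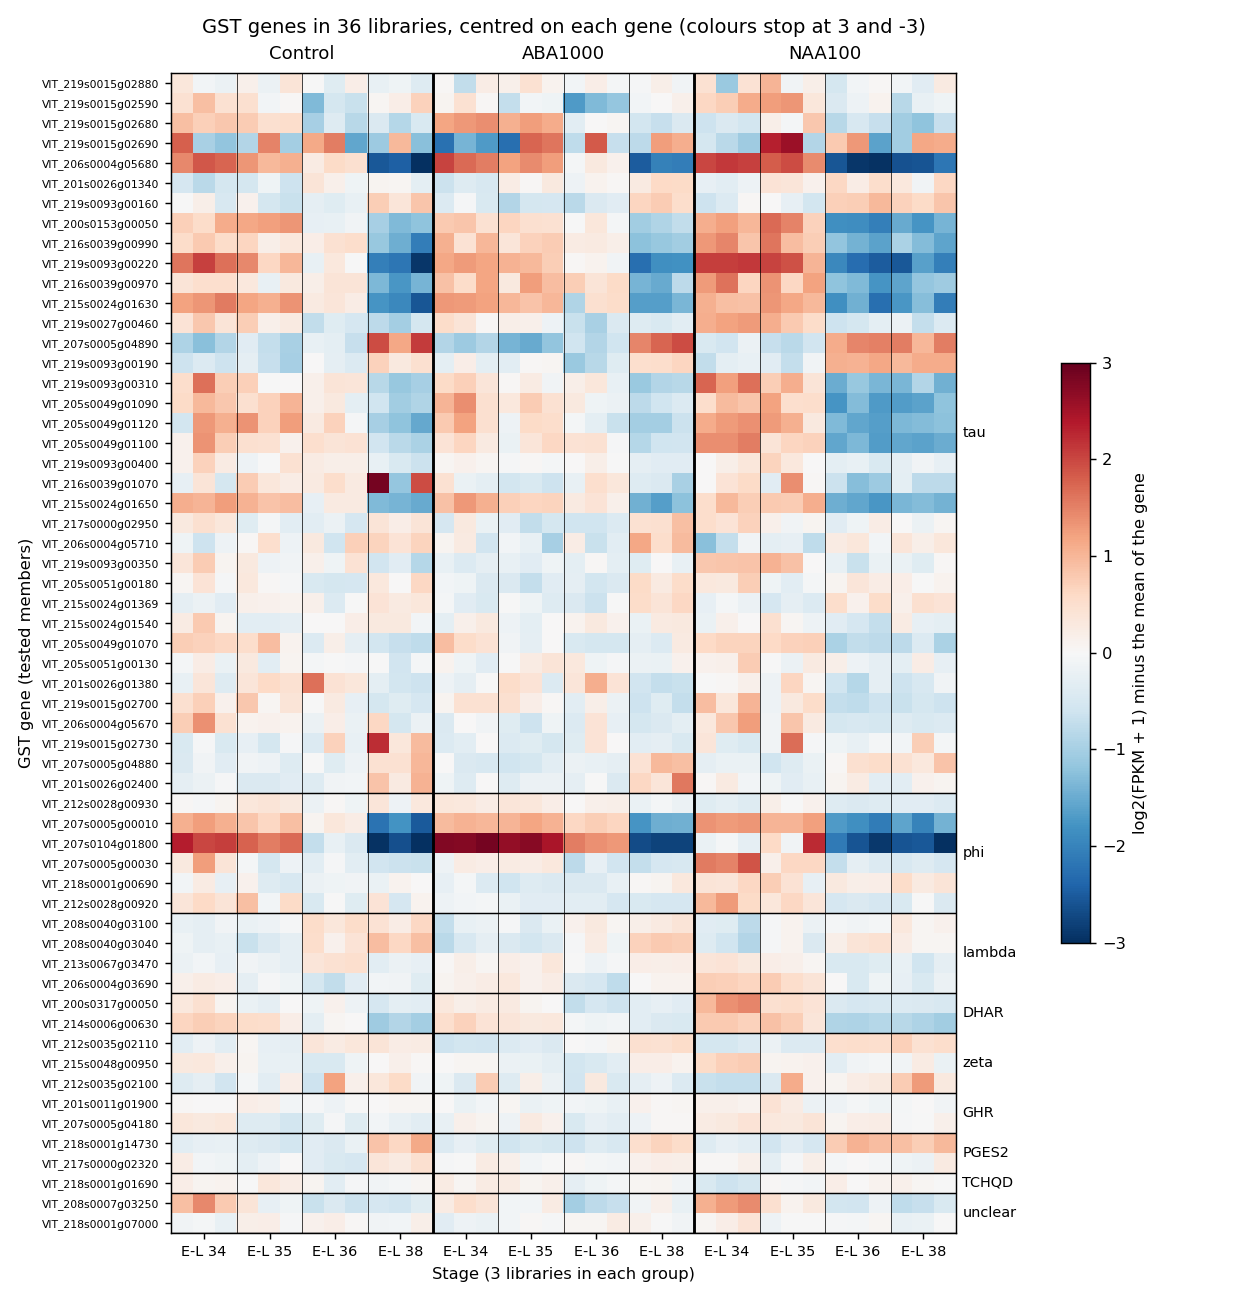
Levels of the 58 tested GST genes in the 36 libraries, as log2(FPKM + 1) minus the mean of the gene over all libraries, with genes in lines by class and libraries in columns by treatment and stage; colours stop at 3 and −3. Many of the called tau and phi genes are blue (below their mean) in the NAA100 libraries of E-L 36 and in the libraries of E-L 38 of all treatments, while they are near their mean in control and ABA1000 libraries of E-L 36.

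In control berries more GSTs had their highest level at E-L 34 than at any other stage. Of the 58 tested genes, 29 (50%) had their highest control mean at E-L 34, against 36.3% of all tested genes, and 13 (22.4%) at E-L 38, against 40.3% of all tested genes, with no test made of these shares. A gene was called at a Benjamini-Hochberg adjusted p of at most 0.01 and a change of at least 1 on the log2(FPKM + 1) scale in a limma fit of all 12 groups. Between the first pair of stages 1 GST fell and none rose, where 2.7% of all genes were called and 1.72% fell. This was VIT_208s0007g03250, of unclear class, whose fall from 36.9 ± 9.85 to 17.6 ± 4.56 FPKM (SD, n = 3, log2 change −1.03) lost its call in 7 of 15 alternatives, among them leaving out replicate 2 of Control E-L 34 (−0.82) or replicate 2 (−0.90) or 3 (−0.96) of Control E-L 35. From E-L 35 to E-L 36 3 GSTs fell, where 4.66% of all genes were called and 3.87% fell. From E-L 36 to E-L 38 12 fell and 3 rose, 25.9% of the 58 genes against 17.2% of all genes, of which 7.76% fell and 9.47% rose. The groups did not overlap for 36 of the 58 GSTs in this last step, a smaller share than the 70.7% of all genes.

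VIT_206s0004g05680 (chromosome 6, 6486745 to 6488453, plus strand), a tau gene named after Arabidopsis GSTU7, showed the steepest decline from E-L 36 to E-L 38 among the control calls. Its control libraries held 125, 166 and 154 FPKM at E-L 34 and 115, 90.3 and 96.0 FPKM at E-L 35. They held 54.0, 67.5 and 63.6 FPKM at E-L 36 and 6.92, 7.48 and 4.13 FPKM at E-L 38. Every library of E-L 38 thus lay far below every earlier one, and the last step amounted to −3.15 on the log2(FPKM + 1) scale (SE 0.18, limma adjusted p 3.7e-14). The genes that fell with it included the phi genes VIT_207s0005g00010 (−2.39) and VIT_207s0104g01800 (−2.44) and 9 more tau genes (−2.42 to −1.22).

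The 3 genes that rose at the end of ripening were VIT_207s0005g04890, VIT_218s0001g14730 and VIT_219s0015g02590. VIT_207s0005g04890 (chromosome 7, 8141027 to 8142187, minus strand), a tau gene described as GST 23 and 1 of the berry switch genes whose pattern the study followed in these samples, stayed between 2.57 and 6.32 FPKM in the control libraries of E-L 34 to E-L 36 and reached 31.7, 17.9 and 35.5 FPKM at E-L 38 (log2 change 2.13, SE 0.20, limma adjusted p 5.5e-10). Since that list rests on ripening berries and was examined on these libraries by the study, this rise is a description and not independent evidence. The PGES2-like gene VIT_218s0001g14730 (chromosome 18, 12776597 to 12781920, plus strand) went from 25.6 ± 2.25 to 60.2 ± 11.4 FPKM (SD, n = 3), a log2 change of 1.19. The call of VIT_219s0015g02590 (log2 change 1.16) was lost without replicate 1 of Control E-L 36 (0.91), without replicate 3 of Control E-L 38 (0.96) and with median-of-ratios scaling (0.95), and that of VIT_218s0001g14730 with this scaling (0.99).

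The 3 genes that fell between E-L 35 and E-L 36 were VIT_207s0104g01800, VIT_219s0015g02680 and the tau gene VIT_200s0153g00050 (−1.44), which lies on unplaced sequence. The first of them, VIT_207s0104g01800 (chromosome 7, 2806800 to 2808620, plus strand), is a phi gene named after Arabidopsis GSTF13. It was called against the control under ABA at E-L 36 and under NAA at E-L 34 and E-L 36. Control libraries of this gene held 60.8, 47.7 and 50.0 FPKM at E-L 34 and 40.1, 34.0 and 38.0 FPKM at E-L 35. They held 6.41, 9.37 and 7.91 FPKM at E-L 36 and 0.536, 0.939 and 0.444 FPKM at E-L 38. The gene was therefore high in green berries, low after the onset of ripening and below 1 FPKM at harvest.

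ABA was followed by few changes in the family. None of the 58 GSTs was called at stages 34, 35 and 38, where 0.688%, 1.45% and 0.648% of all genes were called in the same limma fit, although 16, 18 and 16 GSTs had an unadjusted p below 0.05. At E-L 36 1 GST was called, a share of 1.72% against 0.665% of all genes, of which 0.489% rose. This was VIT_207s0104g01800, at 33.9, 30.2 and 28.9 FPKM in the ABA1000 libraries, all above the 3 control libraries (31.0 ± 2.58 against 7.90 ± 1.48 FPKM, SD, n = 3, log2 fold change 1.86, SE 0.30, limma adjusted p 0.00035). Its ABA1000 libraries were above all control libraries at E-L 34 (82.4, 79.8 and 88.0 FPKM) and at E-L 35 (73.6, 78.8 and 65.1 FPKM) too, with log2 fold changes of 0.66 (adjusted p 0.17) and 0.94 (adjusted p 0.029), neither of them a call. At E-L 38 the ABA1000 and control libraries overlapped below 1 FPKM. The change of the ABA effect between E-L 34 and E-L 36 was not called for any GST in the fit of all libraries (6 with an unadjusted p below 0.05, 0.432% of all genes called), and was called for this gene (1.36) once the 6 libraries with high seed storage transcripts were left out.

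VIT_219s0015g02680 had a similar order of groups without reaching the threshold under ABA. Its ABA1000 libraries held 338, 369 and 390.1 FPKM at E-L 34 against 279.5, 245 and 263 FPKM in the control, 314, 356 and 324 FPKM against 254, 209 and 214 FPKM at E-L 35, and 119, 151 and 156 FPKM against 74.2, 114 and 82.8 FPKM at E-L 36. The groups did not overlap at any of these 3 stages, and the log2 fold changes were 0.48, 0.56 and 0.66 (adjusted p 0.069, 0.021 and 0.012). The median log2 fold change of the 58 GSTs under ABA lay between −0.14 and 0.13 over the 4 stages, against −0.08 to 0.03 for all tested genes. The tau gene VIT_216s0039g01070, named after its values were seen, passed the threshold under ABA at E-L 38 only without replicate 2 of Control E-L 38 (−3.02, against −1.82 with all libraries). The groups did not overlap for 20, 22, 14 and 15 GSTs at the 4 stages in order, where 27%, 35.5%, 37.6% and 32.3% of all genes did not.

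**Figure D2:**
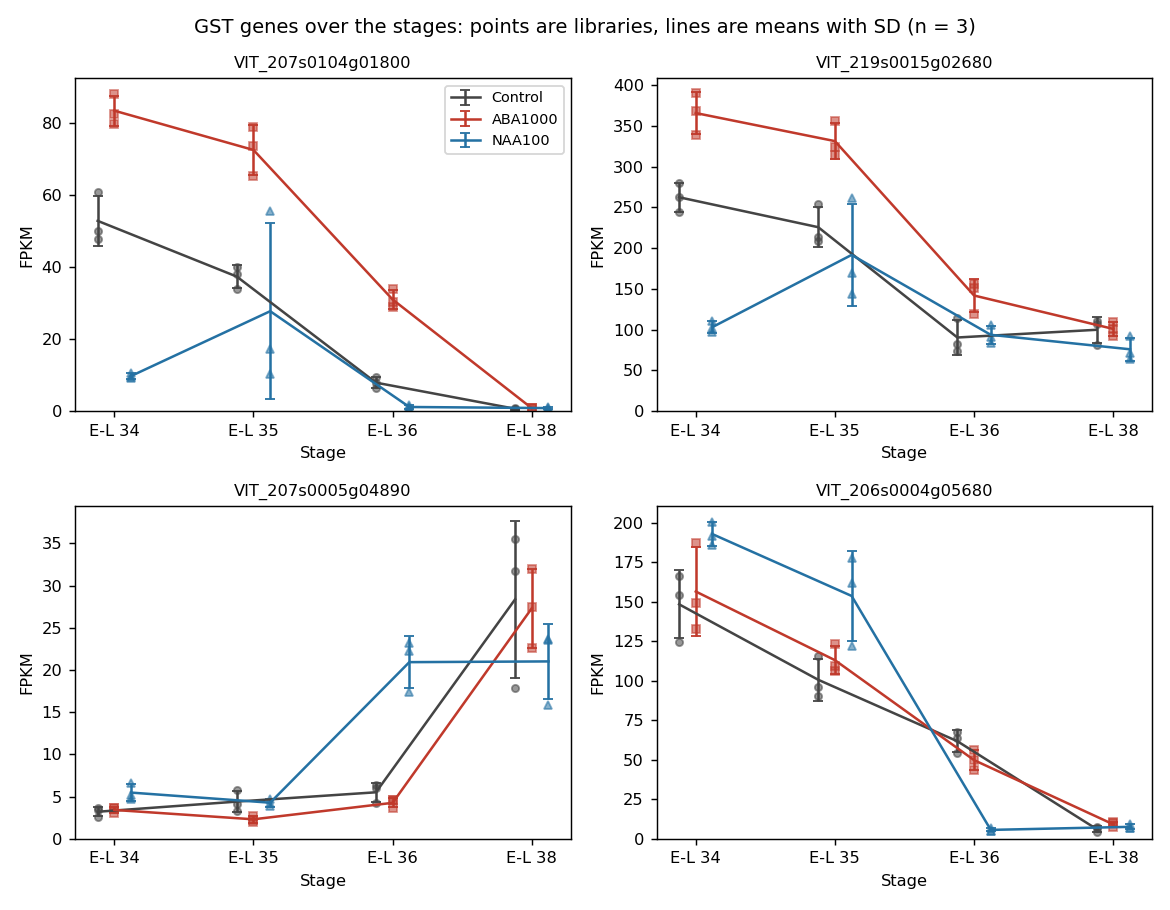
FPKM of 4 GST genes over the 4 sampled stages in Control, ABA1000 and NAA100 berries, with points for libraries and lines with bars for the mean ± SD of 3 libraries. VIT_207s0104g01800 and VIT_219s0015g02680 lie highest under ABA1000 and lowest under NAA100 at E-L 34, and VIT_206s0004g05680 and VIT_207s0005g04890 depart from the control under NAA100 at E-L 36.

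More of the family was called under NAA than under ABA. Over the 4 stages 20 of the 58 GSTs (34.5%) were called in at least 1 NAA comparison, where 24.6% of all genes were, against 1 (1.72%) in at least 1 ABA comparison, where 3.12% of all genes were. The treatments share their control libraries, so these shares are not independent of each other. Most of the NAA calls came at E-L 36 (18 genes) and the others at E-L 34 (3 genes, 1 of them called at both stages).

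At E-L 34, 2 GSTs fell and 1 rose under NAA, 5.17% of the 58 against 3.79% of all genes, of which 1.54% fell and 2.25% rose. VIT_207s0104g01800 held 9.55, 10.6 and 9.08 FPKM in the NAA100 libraries against 60.8, 47.7 and 50.0 FPKM in the control and 83.4 ± 4.16 FPKM under ABA (SD, n = 3). It fell by 2.32 on the log2 scale against the control (SE 0.30, limma adjusted p 1.9e-06) and by 2.98 against ABA1000. VIT_219s0015g02680 held 96.7, 111 and 102 FPKM against 262 ± 17.5 FPKM in the control, a log2 fold change of −1.34 (SE 0.17, adjusted p 1.2e-06), and −1.82 against ABA1000. All 3 NAA100 libraries of both genes were below all control and all ABA1000 libraries of the stage. In the same libraries the summed VviMYBA regulators were between 0.166 and 1.33 FPKM, against 16.3 to 28.0 FPKM in the control, and the part of berry colouring in these differences was not tested.

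The gene that rose at E-L 34 was the phi gene VIT_207s0005g00030 (chromosome 7, 2846572 to 2848295, minus strand), which lies in the same cluster as VIT_207s0104g01800. Its NAA100 libraries held 70.6, 67.7 and 90.0 FPKM, its control libraries 28.9, 57.4 and 30.9 FPKM and its ABA1000 libraries 20.9, 28.1 and 26.9 FPKM. The NAA100 libraries stood above the others without overlap, but replicate 2 of the control was near them, and the log2 fold change was at the threshold (1.002, SE 0.19, limma adjusted p 0.00019). This call was lost in 6 of 15 alternatives, including median-of-ratios scaling (0.90), quantile normalization (0.98), a fit of the 6 libraries alone (adjusted p 0.046) and leaving out replicate 1 (0.83) or 3 (0.87) of the control or replicate 3 of NAA100 (0.88). Against ABA1000 its difference was larger (log2 fold change 1.55, SE 0.19, adjusted p 2.1e-07).

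The DHAR gene VIT_200s0317g00050, named after Arabidopsis DHAR2, was just short of the threshold of size at E-L 34. It held 39.3, 51.7 and 55.5 FPKM in the NAA100 libraries against 24.6, 27.4 and 20.6 FPKM in the control and 21.98 to 24.5 FPKM under ABA, with no overlap between NAA100 and either group. The log2 fold change was 0.98 against the control (SE 0.11, limma adjusted p 1.0e-07) and 1.02 against ABA1000, and the former passed 1 with the FPKM rescaled to TPM (1.04), with 0.1 FPKM in place of 1 FPKM added before the logarithm (1.002), without replicate 2 of the control (1.07) and without replicate 1 of NAA100 (1.12). At E-L 36 the order was the opposite, with 14.1, 13.6 and 13.8 FPKM under NAA against 17.8, 21.6 and 17.5 FPKM in the control (−0.42, adjusted p 0.00091). A lower level at E-L 36 was not particular to NAA, since the ABA1000 libraries held 11.4, 13.4 and 12.4 FPKM, below both other groups. The change of the NAA effect between these stages was −1.40 (SE 0.15, adjusted p 1.0e-08). That of the ABA effect was −0.52 (limma adjusted p 0.047), which was not a call. The TCHQD gene VIT_218s0001g01690 was lower at E-L 34, at 4.82 to 5.58 FPKM under NAA against 8.52 to 9.26 FPKM in the control (−0.66, adjusted p 5.2e-06), a difference that did not reach the threshold of size. At E-L 35 its log2 fold change was −0.21 (adjusted p 0.11) and the groups overlapped.

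**Figure D3:**
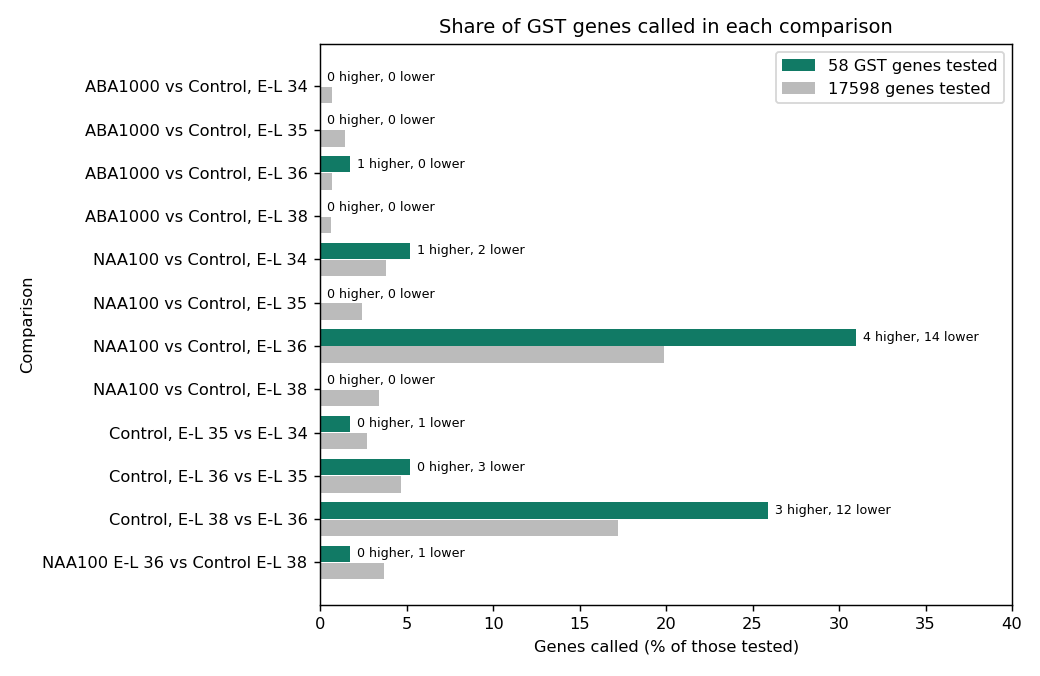
Share of the 58 tested GST genes and of all 17598 tested genes that were called in the limma fit in each of 12 comparisons, in percent. The GST share is highest for NAA100 against the control at E-L 36 (31% against 19.9%) and for the control between E-L 36 and E-L 38 (25.9% against 17.2%).

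At E-L 35 none of the 58 GSTs was called under NAA, where 2.44% of all genes were, while 25 GSTs had an unadjusted p below 0.05 in the limma fit. The count depended on replicates 2 and 3 of NAA100. Without replicate 2 the tau gene VIT_216s0039g00970, named after its values were seen, was called (log2 fold change 1.15, adjusted p 0.0043, against 0.93 with all libraries). VIT_207s0104g01800 held 17.4 and 10.2 FPKM in replicates 1 and 2 and 55.6 FPKM in replicate 3, and control libraries held 34.0 to 40.1 FPKM. With replicate 3 the log2 fold change was −0.75 (adjusted p 0.071), and without it the gene was called (−1.41, adjusted p 8.1e-06). VIT_219s0015g02590 behaved in the same manner, with 418 and 438 FPKM in replicates 1 and 2, 220.2 FPKM in replicate 3 and 165 to 241 FPKM in the control, the log2 fold change being 0.83 (adjusted p 0.017) with replicate 3 and 1.15 (adjusted p 0.0015, called) without it. The same replicate held the highest seed storage level of its group (1242 FPKM) and the VviMYBA level given above, and the part of either in these values was not tested. Against ABA1000 at this stage VIT_207s0104g01800 was lower (−1.69) and VIT_219s0015g02590 higher (1.29) with all libraries in the fit, 2 calls (3.45% of 58 against 2.15% of all genes, 0.966% lower and 1.18% higher), which became 7 without replicate 3 of NAA100, 1 without replicate 1 of either group and 0 without replicate 2 of NAA100.

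At E-L 36, 14 GSTs fell and 4 rose under NAA, 31% of the 58 against 19.9% of all genes. In each direction the background was 10.8% of all genes for a fall and 9.05% for a rise. The median log2 fold change of the 58 GSTs was −0.17, while that of all tested genes was 0.09. The calls were made up of 15 tau genes (12 falling and 3 rising, of 36 tested), 2 phi genes that fell (of 6 tested) and 1 PGES2-like gene that rose (of 2 tested). No lambda, zeta, DHAR, GHR or TCHQD gene was called here, although 3 of 4 lambda genes and both DHAR genes had an unadjusted p below 0.05. The treated and control libraries did not overlap for any of the 18 called genes, and in all for 37 of the 58 GSTs, a smaller share than the 74.4% of all genes.

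The gene with the largest fall was VIT_206s0004g05680, described above for its decline at harvest. Its NAA100 libraries held 186, 201 and 192 FPKM at E-L 34 and 162, 177 and 122 FPKM at E-L 35, so that they lay above all control libraries at both stages. At E-L 36 they held 6.78, 5.13 and 4.94 FPKM, against 54.0, 67.5 and 63.6 FPKM in the control and 43.2, 56.1 and 49.9 FPKM under ABA. The log2 fold change against the control was −3.25 (SE 0.18, limma adjusted p 1.2e-14) and that against ABA1000 −2.94. At E-L 38 NAA100 libraries were at 6.62, 6.70 and 9.34 FPKM, close to the control of that stage.

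The tau genes VIT_219s0093g00220 (chromosome 19, 16675287 to 16677321, minus strand) and VIT_215s0024g01630 (chromosome 15, 3392479 to 3393292, minus strand) and the phi gene VIT_207s0005g00010 (chromosome 7, 2836964 to 2838922, plus strand) had the next largest falls. VIT_219s0093g00220 held 2.47, 1.70 and 1.33 FPKM under NAA against 10.4, 15.6 and 12.1 FPKM in the control (log2 fold change −2.28, SE 0.25, adjusted p 5.5e-09). VIT_215s0024g01630 held 1.81, 2.71 and 1.10 FPKM against a control mean of 11.3 ± 0.596 FPKM (SD, n = 3) (−2.14, SE 0.25, adjusted p 2.7e-08). VIT_207s0005g00010 held 6.45, 5.75 and 4.65 FPKM against 24.9, 29.6 and 27.6 FPKM (−2.11, SE 0.14, adjusted p 3.9e-13). Treated and control libraries were thus separated by a wide gap in all of them. VIT_207s0104g01800, at 1.77, 1.01 and 0.635 FPKM under NAA, had a log2 fold change of −2.08 (adjusted p 9.4e-07), and the 9 other tau genes that fell had log2 fold changes between −1.97 and −1.38. Of these, VIT_201s0026g01380 (−1.38), a low gene named after GSTU17 and singled out after its values were seen, lost its call without replicate 1 of Control E-L 36.

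The 4 genes that rose under NAA at E-L 36 were VIT_207s0005g04890, VIT_219s0093g00190, VIT_218s0001g14730 and VIT_219s0093g00160. VIT_207s0005g04890 held 17.4, 22.3 and 23.1 FPKM under NAA against 6.32, 5.96 and 4.25 FPKM in the control and 4.56, 3.62 and 4.60 FPKM under ABA (1.76 against the control, SE 0.20, adjusted p 1.5e-08). VIT_218s0001g14730 held 55.1, 66.9 and 62.2 FPKM against 25.2, 23.5 and 28.0 FPKM (1.23, SE 0.10, adjusted p 1.8e-11). The neighbouring tau genes VIT_219s0093g00190 and VIT_219s0093g00160 went from 7.77 ± 1.33 to 20.6 ± 0.990 FPKM (1.31) and from 40.5 ± 1.98 to 88.0 ± 8.46 FPKM (1.10, SD, n = 3), and the latter missed the threshold with median-of-ratios scaling (0.97). None of these genes was called under NAA at the other 3 stages.

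**Figure D4:**
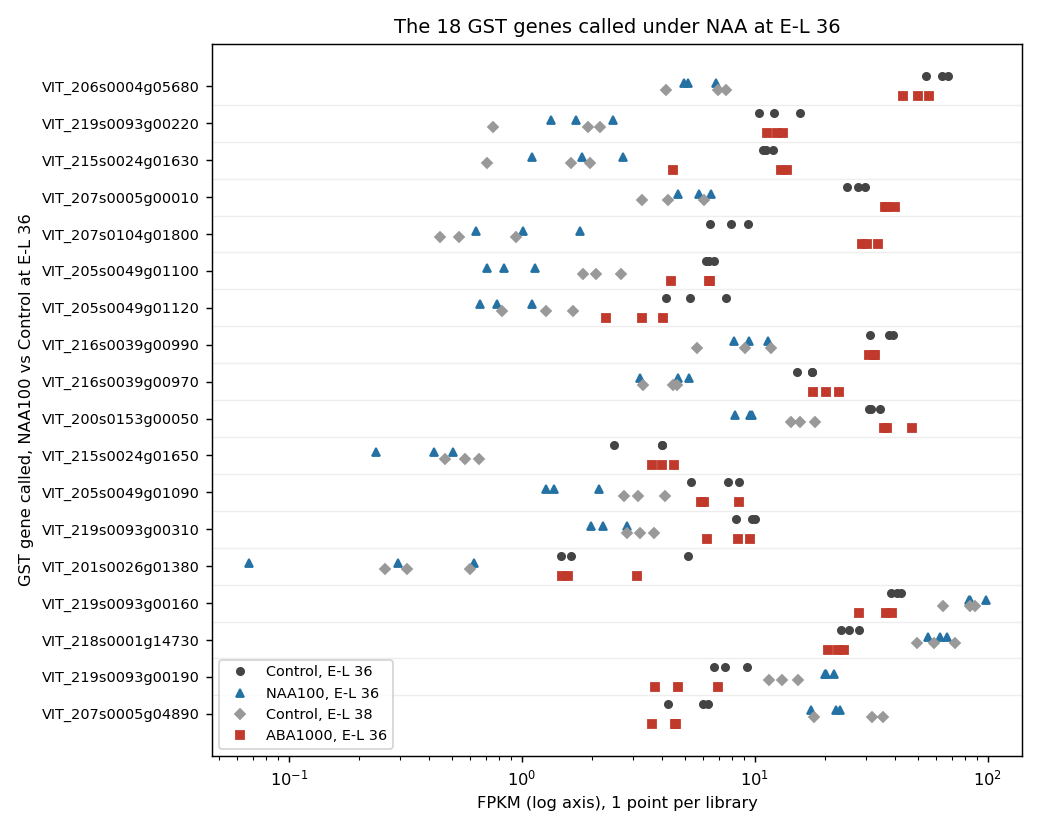
FPKM on a log axis of the 18 GST genes called for NAA100 against the control at E-L 36, with 3 points per group for Control E-L 36, NAA100 E-L 36, Control E-L 38 and ABA1000 E-L 36. The NAA100 points of E-L 36 are set apart from the Control points of that stage in all 18 genes and lie among or near the Control points of E-L 38 in most of them, and VIT_207s0104g01800 is the 1 gene called under ABA1000.

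When NAA100 at E-L 36 was set directly against the control at E-L 38, none of the 18 genes called for NAA at E-L 36 was past the threshold, with log2 fold changes between −0.75 and 0.60, although 4 of them had an adjusted p below 0.05 (VIT_205s0049g01090, VIT_205s0049g01100 and VIT_200s0153g00050, lower under NAA, and VIT_219s0093g00190, higher). VIT_206s0004g05680, for example, averaged 5.62 ± 1.01 FPKM in the former and 6.18 ± 1.80 FPKM in the latter group (−0.09, SE 0.18, adjusted p 0.78), and VIT_218s0001g14730 61.4 ± 5.97 and 60.2 ± 11.4 FPKM (0.04, SE 0.10, adjusted p 0.84). VIT_200s0153g00050 was lower in NAA100 at E-L 36 than in the control at E-L 38 (9.15 against 16.0 FPKM, log2 fold change −0.74, adjusted p 0.0026), short of the threshold of size. The single GST called in this comparison (1.72% of 58 against 3.67% of all genes and 3.36% for a fall, unadjusted p below 0.05 for 19) was the tau gene VIT_216s0039g01070, named here after its values were seen, at 1.70, 0.740 and 0.985 FPKM against 30.0, 0.896 and 15.6 FPKM. Its groups overlapped, and the call was lost without replicate 1 or 3 of Control E-L 38 or without replicate 2 or 3 of NAA100 E-L 36. In NAA100 libraries of E-L 36 the summed VviMYBA regulators reached 94.3 to 112 FPKM, against 34.3 to 57.4 FPKM in the control of the stage and 39.3 to 52.9 FPKM in the control of E-L 38, so that this marker did not match the later control in level. Markers of green tissue did not match it either. In the same order of groups, the summed chlorophyll a-b binding genes held 62.4 to 111, 140 to 182 and 41.9 to 57.4 FPKM. The summed Rubisco small subunit genes held 122 to 203, 135 to 274 and 79.3 to 104 FPKM.

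All 18 genes also differed between NAA100 and ABA1000 at E-L 36. They were chosen by the same NAA100 libraries, so this is not independent evidence. In all, 19 GSTs were called in this comparison (14 lower and 5 higher under NAA, 32.8% against 24.7% of all genes, 12% lower and 12.7% higher). The nineteenth was VIT_219s0015g02590, at 129, 155 and 187 FPKM under NAA and 52.6, 68.3 and 77.2 FPKM under ABA (1.24). Under ABA the 18 genes had log2 fold changes from −0.65 to 1.86 against the control, and only VIT_207s0104g01800 was called. At E-L 34 the direct comparison of NAA100 with ABA1000 called 7 GSTs (2 lower and 5 higher under NAA, 12.1% against 8.75% of all genes, 2.95% lower and 5.8% higher). Besides VIT_207s0104g01800, VIT_219s0015g02680, VIT_207s0005g00030 and VIT_200s0317g00050 these were VIT_205s0049g01100, VIT_212s0028g00920 and VIT_219s0093g00350, with log2 fold changes of 1.01 to 1.13. This count was 3 with median-of-ratios scaling and with quantile normalization. At E-L 38 none was called (2.25% of all genes, 17 GSTs with an unadjusted p below 0.05).

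The effect of NAA at E-L 36 differed from that at E-L 34 for 22 of the 58 GSTs, 17 in the negative and 5 in the positive direction (37.9% against 22.3% of all genes, 13.6% negative and 8.75% positive). The effect at E-L 36 is a part of this difference, so an overlap with the genes called at that stage is no separate evidence. Of the 18 genes called at E-L 36, 17 were among the 22. The exception was VIT_207s0104g01800, which was lower under NAA at both stages (difference of the effects 0.24, limma adjusted p 0.65). VIT_219s0015g02680 was among the 5 with a positive difference (1.41), being lower under NAA at E-L 34 and level with the control at E-L 36 (83.6, 106 and 91.2 FPKM against 74.2, 114 and 82.8 FPKM). The lambda gene VIT_213s0067g03470, similar to the safener-induced IN2-1 of maize, was named after its values were seen. It was higher under NAA at E-L 34 (23.7 ± 0.984 against 16.1 ± 1.06 FPKM, SD, n = 3) and lower at E-L 36 (13.3 ± 0.597 against 25.1 ± 1.30 FPKM). The log2 fold changes of 0.53 and −0.86 stayed under the threshold of size, and their difference of −1.39 passed it. This order was not particular to NAA. Under ABA the gene held 19.5 ± 1.23 FPKM at E-L 34 and 17.4 ± 0.924 FPKM at E-L 36. The difference of the ABA effects was −0.76 (limma adjusted p 0.00037), short of the threshold of size.

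At E-L 38 no GST was called under NAA in the limma fit (3.42% of all genes, 18 GSTs with an unadjusted p below 0.05). The groups did not overlap for 15 of the 58 GSTs, a smaller share than the 39.3% of all genes. The phi gene VIT_212s0028g00930 was lower under NAA at all 4 stages by less than the threshold of size, its NAA100 libraries holding 76.6, 81.0 and 75.1 FPKM at E-L 34 against 101, 96.9 and 104 FPKM in the control, and 78.6, 77.4 and 73.7 FPKM at E-L 38 against 129, 88.9 and 123 FPKM. NAA100 and control libraries did not overlap at any stage, with log2 fold changes of −0.37, −0.25, −0.31 and −0.54 (adjusted p 0.0023, 0.038, 0.0033 and 6.1e-05).

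Of the 87 genes, 62 lay in 20 tandem clusters with at most 100 kb between neighbours, and 18 were on chromosome 19. Neighbours did not always move together. In the chromosome 7 cluster of 6 phi genes (2806800 to 2848295), 2 of the 3 tested genes fell under NAA at E-L 36, and the third, VIT_207s0005g00030, rose at E-L 34 as VIT_207s0104g01800 fell. In the cluster of 5 tau genes on chromosome 19 (16531272 to 16677321), VIT_219s0093g00160 and VIT_219s0093g00190 rose at E-L 36 while VIT_219s0093g00220 fell. In the cluster on chromosome 5 (8104277 to 8171967), by contrast, 3 of the 4 tested tau genes fell and none rose, and the tested genes called on chromosome 15 (2 of 2) and chromosome 16 (2 of 3) fell as well. Copies of a tandem cluster can be alike enough to share reads, and how shared reads were counted is not given in the sources used here, so the division of FPKM among close neighbours is uncertain. VIT_207s0005g04870 overlaps a glutaredoxin gene on the opposite strand, and their reads may not be told apart.

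The fourth most abundant gene, VIT_219s0015g02690 (chromosome 19, 13001509 to 13011984, minus strand), named after Arabidopsis GSTU25, held 2 separate ranges of values. It held 13.6 to 47.6 FPKM (median 32.9) in 20 libraries and 121 to 418 FPKM (median 186) in the other 16, and 10 of the 12 groups had libraries in both ranges. The 2 groups with no library in the upper range were ABA1000 and NAA100 at E-L 34, where 1 of 9 libraries was in it, against 5 of 9 at each later stage, a difference that was not tested. At E-L 36, for example, the control held 153, 203 and 22.99 FPKM and NAA100 121, 174 and 22.2 FPKM. With an SE of 1.12 on the log2 scale no comparison of this gene was called, its log2 fold changes against the control reaching from −1.65 to 1.48. It lies 468 bases from VIT_219s0015g02680, whose libraries did not split in this manner. This gene moved the summed FPKM of the family, which averaged 2347 FPKM in NAA100 at E-L 35 with it and 2078 FPKM without it. The control of that stage averaged 1771 FPKM with it and 1681 FPKM without it. Without the gene, the sums of NAA100 replicates 1, 2 and 3 at E-L 35 were 2383, 2033 and 1819 FPKM.

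**Figure D5:**
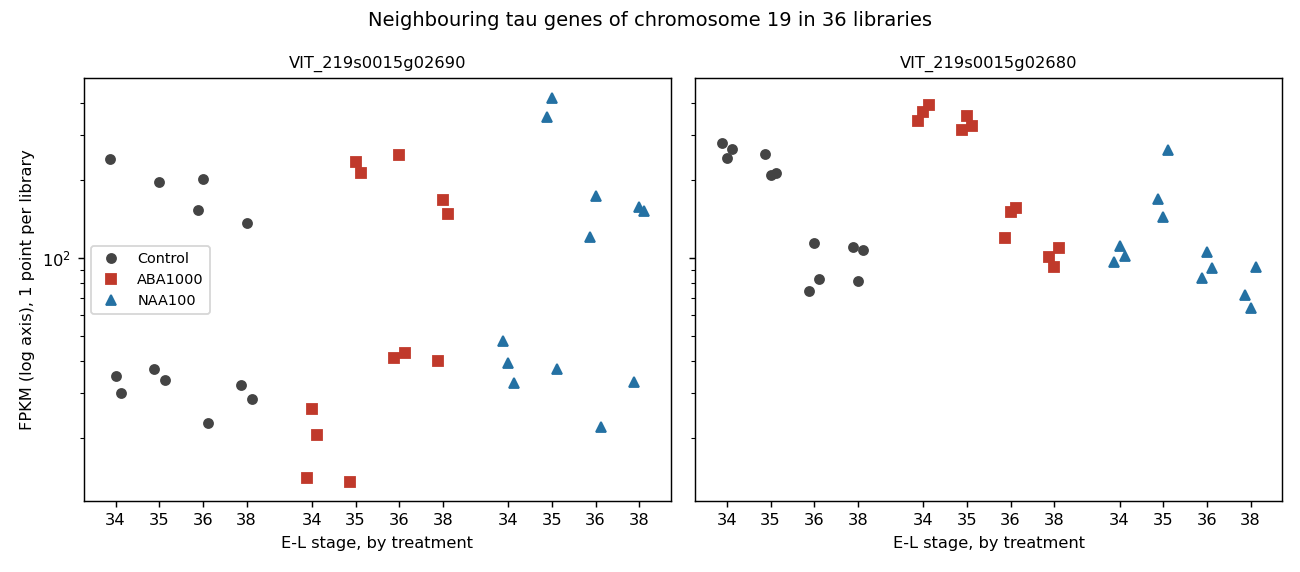
FPKM on a log axis of the neighbouring tau genes VIT_219s0015g02690 and VIT_219s0015g02680 in all 36 libraries, by treatment and stage. The former splits into 20 libraries at 13.6 to 47.6 FPKM and 16 libraries at 121 to 418 FPKM within most groups, while replicates of the latter lie close together except for replicate 3 of NAA100 at E-L 35.

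The summed FPKM of all GSTs fell with ripening in the control, from a mean of 2009 FPKM at E-L 34 to 1416 FPKM at E-L 38, and from 1906 to 1350 FPKM with VIT_219s0015g02690 left out. The sum of the phi class at E-L 36 was 204 ± 8.61 FPKM under ABA, 162 ± 13.3 FPKM in the control and 116 ± 0.595 FPKM under NAA (SD, n = 3), with no test made on sums. The summed lambda class held 122 ± 2.39 FPKM in the control at E-L 34 and 191 ± 17.7 FPKM at E-L 38. Its member VIT_208s0040g03040 had its highest control mean at E-L 38 (89.3 ± 10.1 FPKM), VIT_208s0040g03100 and VIT_213s0067g03470 had theirs at E-L 36 (76.7 ± 6.74 and 25.1 ± 1.30 FPKM) and VIT_206s0004g03690 at E-L 34 (16.01 ± 0.612 FPKM). The zeta gene VIT_212s0035g02110 held 31.9 ± 2.16 FPKM in the control at E-L 34 and 47.0 ± 3.09 FPKM at E-L 38, and the GHR gene VIT_201s0011g01900 held 36.5 ± 0.458 and 37.3 ± 0.584 FPKM at these stages. Neither was called in any treatment comparison.

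Of 66 other glutathione genes listed by their description (synthesis, reduction and peroxidase enzymes, glyoxalases, gamma-glutamyltransferases and the ABCC transporters that carry conjugates into the vacuole), 35 were tested. At E-L 36, 5 of them rose and 3 fell under NAA, where 19.9% of all genes were called, 9.05% for a rise and 10.8% for a fall. Their median log2 fold change was 0.42, that of all tested genes 0.09 and that of the GSTs −0.17, differences that were not tested. The ABCC transporters VIT_209s0002g02430 (84.6 ± 4.51 to 229 ± 20.6 FPKM, 1.42), VIT_207s0005g00260 (13.002 ± 1.55 to 42.7 ± 3.74 FPKM, 1.64) and VIT_216s0050g02480 (1.23), the glyoxalase I gene VIT_204s0023g03040 (1.46) and the gamma-glutamyltransferase gene VIT_211s0016g02830 (1.11) rose. The glyoxalase I gene was also called under NAA at E-L 35 (1.12, limma adjusted p 0.0030) and at E-L 38 (1.62, adjusted p 5.7e-05). The glutathione peroxidase gene VIT_205s0102g00120, which reduces peroxides, fell from 18.2 ± 2.39 to 2.43 ± 0.293 FPKM (−2.48, SE 0.14, limma adjusted p 1.3e-14), and 2 low ABCC genes fell with it. The genes of glutathione synthesis, 1 for glutamate-cysteine ligase and 1 for glutathione synthetase, were not called in any of the 8 treatment comparisons, with log2 fold changes of 0.59 and 0.51 under NAA at E-L 36. Under ABA 1 listed gene was called, VIT_205s0102g00120 at E-L 38 (1.02). In the control from E-L 36 to E-L 38, 7 of the 35 genes rose and 2 fell, where 17.2% of all genes were called. Among the rises were 5 ABCC genes and 1 gamma-glutamyltransferase gene. The median log2 change of the 35 genes in this step was 0.45, against 0.15 for all tested genes, so such a shift was not limited to NAA.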

How the data were processed

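Berry pericarp of 36 libraries (12 groups of treatment and stage, 3 replicates each) was sequenced by the authors (Illumina HiSeq, paired ends) and mapped with TopHat (Bowtie in the submitters' processing notes) to the CRIBI grape genome. The build, the counting tool and the treatment of strand and shared reads are not given in the sources used here. The authors computed the deposited FPKM from these alignments, 1 column per library with no further scaling, and the methods call them RPKM. Counts were not used here, so depth and counting error enter only through the spread of replicates. Columns were mapped to groups by treatment and stage. Replicates carry letters in the labels and numbers in the columns, and were not matched one to one.

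Genes with at least 1 FPKM in at least 3 libraries were tested as log2(FPKM + 1) with limma 3.58.1 (R 4.3.3, intensity trend in eBayes), the 12 group means in 1 fit and p-values adjusted by Benjamini-Hochberg over 17598 genes in each comparison. The study's thresholds (0.01 and 1) were kept, although its test ran on counts. Fold changes on this scale understate the change of low genes. An exact permutation test of 3 against 3 libraries cannot go below 0.1 and was not used. The procedure was tested on simulated data. Tables and figures were made with Python 3.11.15, pandas 2.3.3, numpy 2.4.6 and matplotlib 3.10.9.

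Named genes were the 10 with the highest mean, up to 4 rises and 4 falls without overlap per treatment comparison, the switch gene VIT_207s0005g04890 and the tested genes of classes of at most 3. Genes outside this rule are named where a count or contrast turns on them, after their values were seen. The members, the lists and this rule were chosen with earlier results of these data known. RefSeq genes matched 62 of the 87 members, 1 with a symbol of its own. Alternatives were 0.1 FPKM in the logarithm, no filter, a mean of at least 5 FPKM, TPM, median-of-ratios and quantile scaling, each library left out in turn, a replicate block and a comparison fitted on its own 6 libraries. Leaving out the 6 libraries with over 300 FPKM of seed storage transcripts was added after the data were seen.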

Additional observations from a re-analysis of the deposited data

Results flagged for a closer look

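The effect of NAA against the control changed between E-L 34 and E-L 36 for 22 of the 58 tested GSTs, by the interaction term of the limma fit with the threshold used for calls throughout (log2(FPKM + 1) scale). In the following, the effect at E-L 36 minus that at E-L 34 is given for the named genes among them. The difference was negative for the tau genes VIT_206s0004g05680 (−3.63), VIT_219s0093g00220 (−2.59) and VIT_215s0024g01630 (−1.72), for the phi genes VIT_207s0005g00010 (−2.29) and VIT_207s0005g00030 (−1.24) and for the DHAR gene VIT_200s0317g00050 (−1.40). It was positive for the tau genes VIT_219s0015g02680 (1.41), VIT_219s0093g00160 (1.32), VIT_219s0093g00190 (1.19) and VIT_207s0005g04890 (1.14) and for the PGES2-like gene VIT_218s0001g14730 (1.29). That of VIT_207s0005g04890 fell just below 1 (0.99) without replicate 3 of Control E-L 36. Both effects use control libraries of their own stage. The paper reports later ripening after NAA, so that sprayed and control berries of a stage can differ in sampling date, whose part was not tested.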

How the results depend on the processing

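The counts of 18 GSTs called for NAA at E-L 36 (17 to 18 with 1 library left out), of 19 for NAA100 against ABA1000 at E-L 36, of 22 with a changed NAA effect and of 1 for ABA at E-L 36 stayed within 1.5 times under all alternatives run. The count for the control from E-L 36 to E-L 38 was 15, 23 with 0.1 FPKM added and 14 to 19 with 1 library left out. Its split of rises and falls was 3 and 12, 8 and 12 with TPM, 1 and 15 with median-of-ratios and 4 and 15 with quantile scaling, where these scalings shifted the median of all genes by 0.13, −0.16 and −0.10 (log2). Over all genes this split was 1666 and 1366, against 2563 and 1419, 1143 and 1813, and 1262 and 1635. From E-L 35 to E-L 36 the median shifted by −0.11, 0.16 and 0.18.

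The other counts were small and moved more. For ABA at E-L 35 the count of 0 became 1 with TPM (0 to 1 with 1 library left out), and at E-L 38 it became 2 with no filter and 1 without the 6 libraries of high seed storage level (0 to 2). For NAA the 3 calls of E-L 34 ranged from 2 to 5 with 1 library left out. The 0 of E-L 35 became 1 without the 6 libraries (0 to 2), and the 0 of E-L 38 became 1 with 0.1 FPKM added, 2 with no filter and 2 with TPM (0 to 1). For the control from E-L 34 to E-L 35 the count of 1 became 0 with median-of-ratios, with quantile scaling, with the 6 libraries of the comparison alone and without the 6 libraries of high seed storage level (0 to 2). From E-L 35 to E-L 36 the count of 3 became 6 with 0.1 FPKM added, 9 with TPM and 8 without those libraries (3 to 7). For NAA100 at E-L 36 against the control at E-L 38 the count of 1 became 4 with 0.1 FPKM added, 3 with no filter, 0 with a mean of at least 5 FPKM, 0 with the 6 libraries alone and 2 without the libraries of high seed storage level (0 to 2). For NAA100 against ABA1000 the 7 calls of E-L 34 became 3 with median-of-ratios and 3 with quantile scaling. The 2 calls of E-L 35 became 5 with TPM, 0 with the 6 libraries alone and 6 without those of high seed storage level (0 to 7). The 0 of E-L 38 became 3 with 0.1 FPKM added, 3 with TPM and 1 without those libraries (0 to 1). The changed ABA effect, with a count of 0, became 1 without them. The causes of these shifts were not tested.

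For the named genes, only the 35 results that were called in the fit of all libraries were followed through the alternatives. Of 591 alternatives, 572 kept direction and side of the threshold, 19 fell below it and none turned direction. Results of named genes without a call, such as those of VIT_219s0015g02690, are not in this count. The paper describes a randomized block design, but whether libraries of equal replicate number came from the same block could not be decided. Of 36 pairs of equal number, 9 had deviations correlated above 0.1 (from −0.29 to 0.34), with no reference value for unpaired libraries. A replicate block left all counts as they were (18 for NAA at E-L 36) and changed no call of a named gene.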
